A study of Mus musculus with 56 samples.

Results

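Expression of 10 genes of hepatic stellate cells and extracellular matrix was followed in RNA-seq of mouse liver. The genes were Col1a1, Col1a2, Col3a1, Dcn, Lum, Reln, Des, Acta2, Pdgfrb and Timp1, taken by symbol from a table of 23813 named genes with the first listed transcript of each, and all 10 were found. Whole liver was sequenced, so more or fewer cells of a type cannot be told apart from more or less RNA per cell in any result that follows.

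Hepatic stellate cells are the pericytes of the liver sinusoid. They lie between hepatocytes and endothelium, store vitamin A as retinyl esters and carry the intermediate filament desmin in rodents. After injury they can become myofibroblasts, which express smooth muscle actin, secrete fibrillar collagens and make inhibitors of the proteases that degrade matrix. Thyroid hormone receptors are nuclear receptors that bind triiodothyronine (T3), and NCOR1 is a corepressor that binds the receptor in the absence of hormone.

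The table held 12 liver libraries from male mice, 4 in each of 3 groups, and the replicates were described as independent biological samples. For 16 days every mouse ate chow low in iodine that held 0.15% PTU (propylthiouracil, an inhibitor of thyroid hormone synthesis). Hypothyroid WT and hypothyroid L-NCORdeltaID mice received vehicle, and T3-treated WT mice received injections of 5 μg T3 over the last 4 to 6 days. L-NCORdeltaID mice carry a liver-specific NCOR1 mutant without TR interaction domains on a mixed C57BL/6;129S background. The study does not say which background the WT mice sequenced here had, so strain and genotype cannot be told apart. Ages are listed in the study for larger sets of mice than the livers sequenced, and there the mutants were younger on average than either WT set, so age and genotype cannot be told apart here. The promoter that drives the liver-specific allele and the cell types in which it is active were not given in the sources used here.

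Values are RPKM, read counts normalised to transcript length and library depth, so levels of different genes are compared per length. Depth was estimated from the steps between low values at 21350000 to 42750000 reads per library, and it was lowest in T3-treated WT (21350000 to 26050000 reads) and highest in L-NCORdeltaID (37900000 to 42750000 reads). Albumin reached 11609 to 37284 RPKM, and the T3 target Thrsp was at 322 ± 128 RPKM in hypothyroid WT and 1597 ± 652 RPKM in T3-treated WT (SD, n = 4). In L-NCORdeltaID Thrsp was at 844 ± 294 RPKM. Ncor1 was at 14.7 ± 0.665 RPKM in hypothyroid WT and 13.0 ± 0.844 RPKM in L-NCORdeltaID, and this level over the whole transcript does not test for the deleted part. Differences below are on the scale of log2(RPKM + 0.1), from limma with Benjamini-Hochberg adjustment over all genes tested in a comparison.

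Dcn, which encodes the small proteoglycan decorin, was by far the most abundant at a mean of 57.2 RPKM over the 12 libraries, above 94.9% of genes with any reads. Reln, the secreted glycoprotein reelin, followed at 6.12 RPKM. The other 8 genes had means from 0.606 RPKM (Timp1) to 4.59 RPKM (Col3a1). In hypothyroid WT the order was Dcn, Reln, Col3a1, Lum, Des, Col1a2, Acta2, Pdgfrb, Col1a1 and Timp1, and of these neighbours Dcn and Reln, Reln and Col3a1, and Col1a1 and Timp1 did not overlap between libraries. In L-NCORdeltaID Col3a1 moved ahead of Reln on means (7.41 against 5.68 RPKM), with overlapping libraries, whereas in T3-treated WT Reln stayed ahead of Col3a1 (5.91 against 4.42 RPKM) and these also overlapped.

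**Figure D1:**
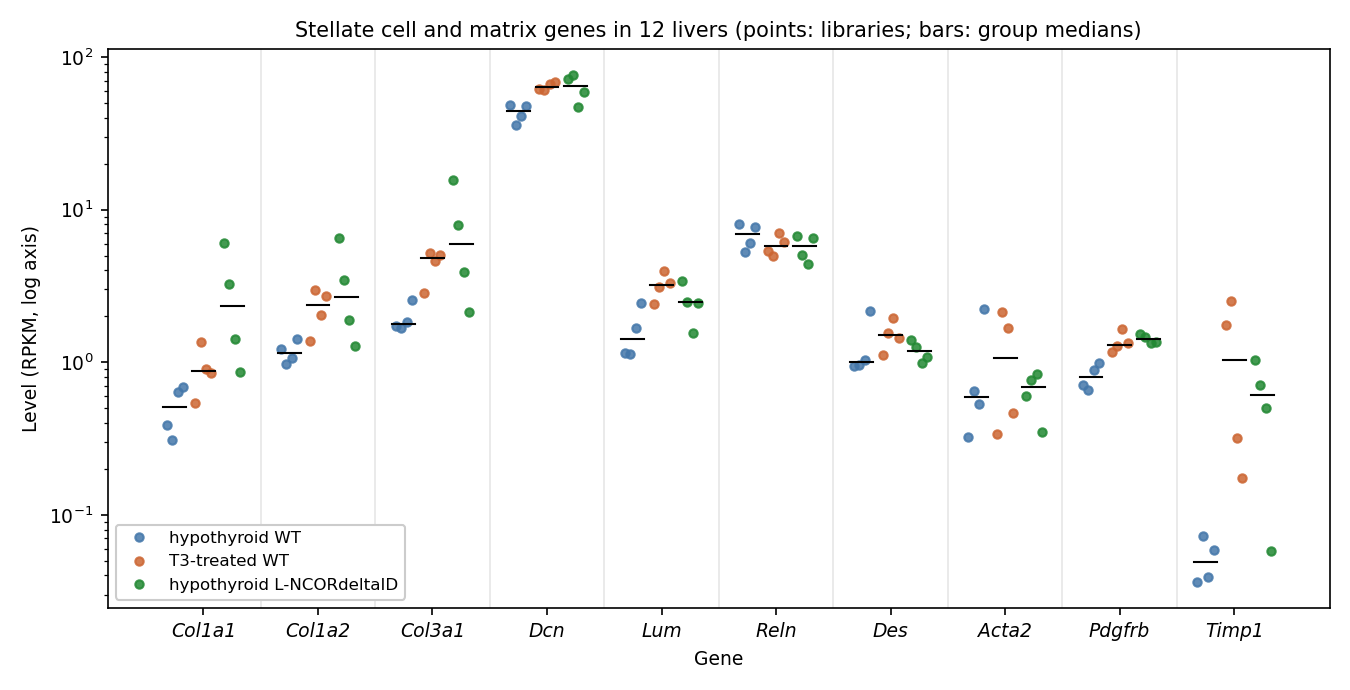
Level of each gene in each of the 12 livers, in RPKM on a log axis. Points are libraries, drawn from left to right by replicate number, colours are the 3 groups, and black bars are group medians. Dcn lies between 35.7 and 76.8 RPKM, while Timp1 is at 0.036 to 0.073 RPKM in hypothyroid WT and reaches 2.52 RPKM in T3-treated WT.

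After T3 treatment Col3a1 was the only one of the 10 genes past both thresholds (adjusted p under 0.01 and a log2 difference above 1). The difference was above 0 for 9 of the 10, beside 69.9% of all genes. All 10 genes were tested among 13941, and 8.28% of all genes passed these thresholds in the upward direction. At an adjusted p under 0.01 and any fold, 4 of the 10 genes were higher (Col3a1, Dcn, Lum and Pdgfrb), beside 24.5% of all genes. The libraries of the 2 groups did not overlap for 4 genes (Col3a1, Dcn, Pdgfrb and Timp1), all higher with T3, beside 35.8% of all genes. Timp1 met the filter on low values only through the 4 T3-treated livers in which it was high, and without it 3 of 9 genes did not overlap and the median difference was 0.68. The median log2 difference was 0.71 over the 10 genes and 0.23 over all genes tested, so the whole table was shifted upwards after T3. Scaling of each library by the median of gene ratios removed most of that shift (median of all genes 0.03), and then 1 of the 10 genes, Col3a1, had an adjusted p under 0.01, beside 26.1% of all genes, and none passed both thresholds.

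In livers with the NCOR1 mutant the mean differences of the collagens were larger but the spread between livers was wide, and none of the 9 genes tested was called at an adjusted p under 0.01 (0.725% of 13790 genes were called higher and 1.27% in either direction). Col1a1, Col1a2, Col3a1, Dcn and Pdgfrb were higher in the mutant at an unadjusted limma p under 0.05. The share of all genes at that threshold was not computed, so nothing is read from their number. With an adjusted p under 0.05 there was 1, Pdgfrb, beside 2.49% of all genes called higher. Libraries did not overlap for Col1a1 and Pdgfrb, higher in the mutant, beside 7.78% of all genes. The median log2 difference was 0.61 over the 9 genes and 0.03 over all genes. Timp1 reached 0.1 RPKM in only 3 libraries of this comparison and was not tested. The hypothyroid WT libraries are shared by this and the T3 comparison.

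Set directly against each other, T3-treated WT and hypothyroid L-NCORdeltaID livers differed in none of the 10 genes at an adjusted p under 0.01, beside 21.2% of 14017 genes. Of the 10 genes Col1a1 had the lowest p, and it was lower in T3-treated WT by 1.28 on the log2 scale (SE 0.53, limma adjusted p = 0.0867). The 95% intervals of these differences were wide for the other fibrillar collagens, from -1.59 to 0.79 for Col3a1 and from -1.34 to 0.72 for Col1a2, and narrow for Dcn, from -0.29 to 0.37, and Pdgfrb, from -0.39 to 0.24.

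**Figure D2:**
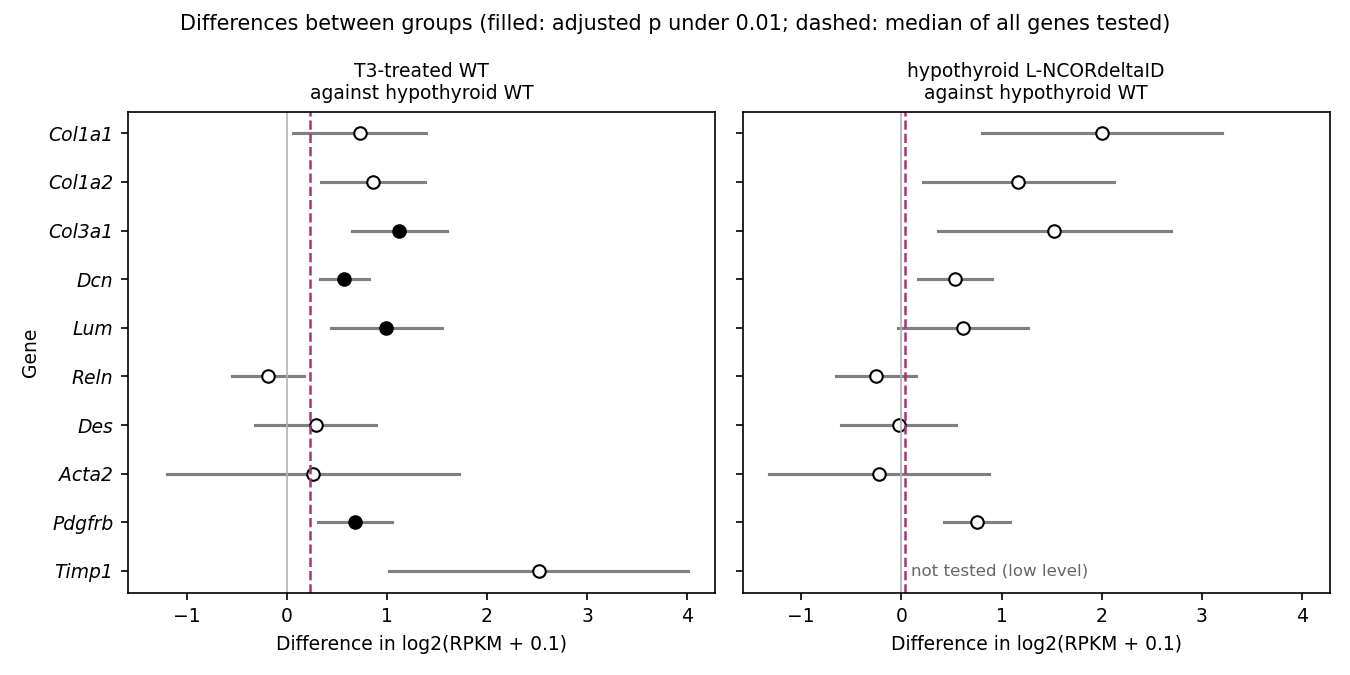
Log2 differences between groups with 95% intervals, for T3-treated WT and for hypothyroid L-NCORdeltaID, each against hypothyroid WT. Filled points have an adjusted p under 0.01 and the dashed lines are the medians of all genes tested, 0.23 and 0.03. Col3a1, Dcn, Lum and Pdgfrb are filled after T3 and no point is filled for the mutant.

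Col1a1 and Col1a2 encode the chains of collagen I and Col3a1 the chain of collagen III, the main fibre-forming collagens of liver. Col3a1 was at 1.72, 1.67, 1.83 and 2.56 RPKM in hypothyroid WT, at 2.83, 5.18, 4.62 and 5.04 RPKM in T3-treated WT and at 15.6, 7.99, 3.89 and 2.14 RPKM in L-NCORdeltaID. Every T3-treated liver was above every hypothyroid WT liver, and 3 of 4 mutant livers were. Col3a1 rose after T3 by 1.13 on the log2 scale (SE 0.21, limma adjusted p = 0.00225), 0.89 above the median of all genes. The mutant difference was larger at 1.53, with an SE of 0.51 and a limma adjusted p of 0.136. The T3 call was lost with a pseudocount of 1 (0.86, adjusted p = 0.00253), with scaling by the median of gene ratios (0.92, adjusted p = 0.00751) and with all 12 libraries in the model (1.13, adjusted p = 0.0643), where the spread of the mutant livers enters the error.

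Col1a2 was at 1.22, 0.981, 1.06 and 1.42 RPKM in hypothyroid WT, at 1.37, 2.96, 2.06 and 2.72 RPKM in T3-treated WT and at 6.52, 3.45, 1.89 and 1.28 RPKM in L-NCORdeltaID. In each of the latter groups 3 of 4 livers were above all hypothyroid WT livers. The differences were 0.86 (SE 0.23, limma adjusted p = 0.0130) after T3 and 1.17 (SE 0.42, limma adjusted p = 0.161) in the mutant. Without T3-treated WT replicate 1 the T3 difference passed both thresholds (1.07, adjusted p = 0.00195).

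Col1a1 was at 0.385, 0.311, 0.640 and 0.692 RPKM in hypothyroid WT, at 0.540, 1.36, 0.899 and 0.851 RPKM in T3-treated WT and at 6.08, 3.26, 1.42 and 0.866 RPKM in L-NCORdeltaID. Here all 4 mutant livers were above all hypothyroid WT livers, but they ranged over 7.02-fold among themselves, compared to 2.23-fold in hypothyroid WT. The mutant difference was 2.01 (SE 0.53, limma adjusted p = 0.0705) and the T3 difference 0.73 (SE 0.29, limma adjusted p = 0.0653). Mutant replicate 1 was the highest of all 12 livers for each of the 3 collagens. Without it the mutant differences were 1.54 for Col1a1, 1.05 for Col3a1 and 0.76 for Col1a2, and for Col1a2 and Col3a1 the direct difference between T3-treated WT and the mutant changed sign, to 0.10 and 0.08.

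Further markers, of stellate cells and of other cell types, also varied among the mutant livers, and their part in the collagen values was not tested. Vim, the mesenchymal intermediate filament vimentin, was at 22.5, 18.3, 9.34 and 7.42 RPKM in the same 4 mutant livers. Lrat, the enzyme that makes retinyl esters in stellate cells, was at 4.55, 4.41, 2.87 and 2.93 RPKM. The summed level of 14 macrophage markers was 170, 295, 136 and 107 RPKM, and that of 16 endothelial markers 171, 139, 130 and 129 RPKM. All 4 of these measures had their 2 highest values in mutant replicates 1 and 2, as did the collagens.

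The 250 bases before the transcript start of Col1a2 and Col3a1 are shown because these 2 genes had the highest correlation over the livers. They are from RefSeq (GRCm38.p6), which had entries for 6 of the 10 genes, and each matched mm9, the build of the data, exactly and once, at chr6:4455368-4455617 and chr1:45368133-45368382, both on the plus strand. The RefSeq start of Col1a2 lay 804 bp downstream of its start in GENCODE M1, the annotation used for acetylated regions below. By GENCODE M1 the Col1a2 window thus lies inside the gene. Capitals mark matches on either strand to any of 7 motifs searched. These were the CCAAT box, the TATA box (as TATAAA), the GC box (as GGGCGG), the nuclear receptor half-site (as AGGTCA), the AP-1 site (as TGANTCA), the E-box (as CACGTG) and the CArG box.
Col1a2: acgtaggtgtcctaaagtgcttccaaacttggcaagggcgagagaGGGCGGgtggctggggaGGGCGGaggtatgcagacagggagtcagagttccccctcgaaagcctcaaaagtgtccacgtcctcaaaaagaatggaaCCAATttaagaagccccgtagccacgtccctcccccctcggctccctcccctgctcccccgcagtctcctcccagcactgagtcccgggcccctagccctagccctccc
Col3a1: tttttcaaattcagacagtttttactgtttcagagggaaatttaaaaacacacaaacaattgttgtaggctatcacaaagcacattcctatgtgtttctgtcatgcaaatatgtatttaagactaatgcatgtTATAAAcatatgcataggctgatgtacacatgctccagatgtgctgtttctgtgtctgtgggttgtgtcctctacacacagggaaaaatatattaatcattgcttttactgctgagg
Col1a2 held 2 GGGCGG and 1 CCAAT, and GC made up 62.0% of its bases. Col3a1 held 1 TATAAA, which began at position -117 from the start, and had a GC content of 35.2%. Of 32851 mouse promoters of the same length, 32.7% held GGGCGG, 33.8% CCAAT and 12.4% TATAAA at any position. The half-site, to which thyroid hormone receptors also bind, was in 14.0% of all promoters and in 0 of the 6 searched here, which says only that these letters are not in these windows.

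The balance between the 2 chains of collagen I was examined after the values had been seen. The Col1a1 to Col1a2 ratio of RPKM was 0.315, 0.317, 0.601 and 0.487 in hypothyroid WT, 0.393, 0.459, 0.437 and 0.313 in T3-treated WT and 0.932, 0.944, 0.751 and 0.675 in L-NCORdeltaID. All mutant livers, including those with the lowest collagen levels, were above all livers of the other groups. The ratio was 0.825 ± 0.134 in the mutant, 0.430 ± 0.139 in hypothyroid WT and 0.401 ± 0.0645 in T3-treated WT (SD, n = 4). The mutant differed from either WT group with p = 0.0286 (exact two-sided permutation test, the smallest p that 4 against 4 allows), or 0.0857 when adjusted over the 6 ratio tests made, so the difference does not pass that correction. T3-treated and hypothyroid WT overlapped (exact permutation p = 0.686, adjusted p = 0.686). The Col3a1 to Col1a2 ratio overlapped in every comparison (exact permutation p = 0.0571 to 0.543, adjusted p = 0.114 to 0.651).

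**Figure D3:**
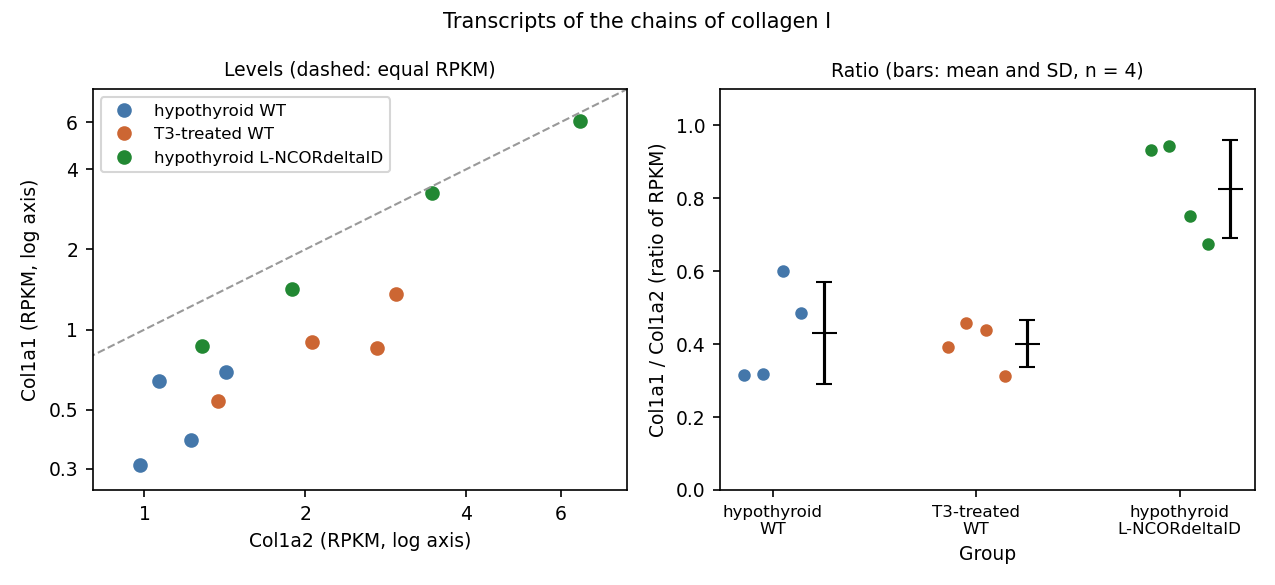
Left, Col1a1 against Col1a2 in RPKM on log axes, with equal levels on the dashed line. Right, the ratio in each liver with the mean and SD of the 4 livers of each group beside the points. Mutant livers lie at 0.675 to 0.944 and all WT livers at 0.313 to 0.601.

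Decorin and lumican are small leucine-rich proteoglycans that bind collagen fibrils, and Dcn and Lum are neighbours on chromosome 10. Dcn was at 49.0, 35.7, 41.1 and 48.1 RPKM in hypothyroid WT, at 61.7, 60.6, 66.3 and 69.2 RPKM in T3-treated WT and at 71.5, 76.8, 47.3 and 58.7 RPKM in L-NCORdeltaID. All T3-treated livers were above all hypothyroid WT livers, and 3 of 4 mutant livers were. The T3 difference was 0.58 (SE 0.11, limma adjusted p = 0.00213), 0.34 above the median of all genes and below the threshold on fold. The adjusted p was 0.0278 after scaling by the median of gene ratios. In the mutant Dcn differed by 0.53 (SE 0.16, limma adjusted p = 0.107).

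Lum was at 1.15, 1.13, 1.68 and 2.44 RPKM in hypothyroid WT, at 2.40, 3.11, 3.98 and 3.30 RPKM in T3-treated WT and at 3.43, 2.49, 1.54 and 2.45 RPKM in L-NCORdeltaID. Hypothyroid WT replicate 4 was the highest of its group and overlapped T3-treated replicate 1. The T3 difference was 0.996 (SE 0.25, limma adjusted p = 0.00913), at the edge of the threshold on fold. It passed without hypothyroid WT replicate 4 (1.21, adjusted p = 0.00262), without T3-treated WT replicate 1 (1.12, adjusted p = 0.00818) and with a pseudocount of 0.01 (1.04, adjusted p = 0.00951), and after scaling by the median of gene ratios its adjusted p was 0.0263. The mutant difference was 0.61 (SE 0.29, limma adjusted p = 0.267).

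Pdgfrb encodes the receptor for platelet-derived growth factor B, a mitogen of stellate cells. It was at 0.704, 0.661, 0.888 and 0.996 RPKM in hypothyroid WT, at 1.16, 1.27, 1.66 and 1.34 RPKM in T3-treated WT and at 1.54, 1.47, 1.33 and 1.36 RPKM in L-NCORdeltaID. Hypothyroid WT livers were below all livers of both other groups, and the coefficient of variation between mutant livers was 6.60%. The differences were 0.68 after T3 (SE 0.17, limma adjusted p = 0.00828) and 0.75 in the mutant (SE 0.15, limma adjusted p = 0.0245), with ratios of means of 1.67 and 1.75. After scaling by the median of gene ratios these were 0.49 (adjusted p = 0.0293) and 0.74 (adjusted p = 0.0260).

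Reln, a secreted glycoprotein best known from the developing brain and expressed by stellate cells in liver, had lower means in both groups than in hypothyroid WT, with overlapping livers. It was at 8.09, 5.27, 6.08 and 7.71 RPKM in hypothyroid WT, at 5.40, 5.00, 7.06 and 6.18 RPKM in T3-treated WT and at 6.73, 5.04, 4.40 and 6.55 RPKM in L-NCORdeltaID. The 3 groups overlapped and neither comparison passed a test. The differences were -0.19 after T3 (SE 0.16, limma adjusted p = 0.345) and -0.25 in the mutant (SE 0.18, limma adjusted p = 0.460). The 95% interval of the T3 difference was from -0.55 to 0.17.

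Reln was also the only one of the 10 genes whose transcript start lay in an H3 acetylated region, and its 250 upstream bases (RefSeq, exact match in mm9 at chr5:21850524-21850773, minus strand) are shown for that reason. Capitals mark the same motifs.
Reln: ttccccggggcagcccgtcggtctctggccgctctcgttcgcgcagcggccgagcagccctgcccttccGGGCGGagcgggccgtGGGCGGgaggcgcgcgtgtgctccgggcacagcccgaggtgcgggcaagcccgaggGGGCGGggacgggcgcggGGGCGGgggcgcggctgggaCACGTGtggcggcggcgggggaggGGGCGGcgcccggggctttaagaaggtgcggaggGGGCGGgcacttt
The window had a GC content of 80.0% and held 6 GGGCGG and 1 CACGTG, the latter found in 6.02% of all promoters.

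Des and Acta2 encode the cytoskeletal proteins desmin and smooth muscle actin, which vascular smooth muscle also makes. Des was at 0.949, 0.956, 1.04 and 2.16 RPKM in hypothyroid WT, at 1.12, 1.56, 1.95 and 1.44 RPKM in T3-treated WT and at 1.40, 1.27, 0.986 and 1.09 RPKM in L-NCORdeltaID. Acta2 was at 0.323, 0.652, 0.534 and 2.25 RPKM, at 0.341, 2.12, 1.68 and 0.462 RPKM and at 0.602, 0.766, 0.839 and 0.351 RPKM in the same groups. Hypothyroid WT replicate 4 was the highest of all 12 livers for both genes, and Acta2 fell into 2 high and 2 low livers after T3.

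No difference in these genes passed a test. For Des it was 0.29 after T3 (SE 0.27, limma adjusted p = 0.393) and -0.03 in the mutant (SE 0.25, limma adjusted p = 0.965). For Acta2 it was 0.26 (SE 0.65, limma adjusted p = 0.757) and -0.22 (SE 0.49, limma adjusted p = 0.842), and the 95% interval of the T3 difference was wide, from -1.20 to 1.72. Without hypothyroid WT replicate 4 the mutant differences turned positive, to 0.24 for Des and 0.28 for Acta2, with adjusted p of 0.442 and 0.662. Summed levels of 14 smooth muscle markers were 22.8, 26.9, 26.7 and 32.3 RPKM in hypothyroid WT, highest in the same replicate 4, and 23.0 to 28.8 RPKM in T3-treated WT. Their part in the Acta2 values was not tested. The coding sequence of Acta2 is nearly the same as in other actin genes, and how shared reads were counted was not given in the sources used here.

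Timp1 encodes an inhibitor of matrix metalloproteinases that activated stellate cells, macrophages and hepatocytes can secrete. It was at 0.036, 0.073, 0.039 and 0.059 RPKM in hypothyroid WT, at 1.75, 2.52, 0.318 and 0.173 RPKM in T3-treated WT and at 1.03, 0.712, 0.503 and 0.058 RPKM in L-NCORdeltaID. In hypothyroid WT these values stood for 1 or 2 reads per library and 6 reads in all, compared to 105 reads in T3-treated WT and 82 in the mutant. All 4 T3-treated livers and 3 of 4 mutant livers were above all hypothyroid WT livers.

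Relative to depth Timp1 was 23.3-fold higher in T3-treated WT (95% interval 10.4 to 65.0) and 11.1-fold higher in the mutant (95% interval 4.88 to 31.1), with exact binomial intervals that cover counting error in pooled reads only. Of the 105 reads after T3, 39 were from replicate 1 and 56 from replicate 2, and without replicate 2 the ratio was 14.6 (95% interval 6.27 to 41.8). The limma difference after T3 was 2.51 (SE 0.66, adjusted p = 0.0121), and with a pseudocount of 0.01 it was 3.59 (adjusted p = 0.00563). This test was open to Timp1 only because all 4 T3-treated livers were above the filter, so that it had no value when any of them was left out, and it is no support for a difference. In the mutant Timp1 had a value only without the filter on low levels or with all 12 libraries in 1 model. Without the filter the mutant difference was 1.85 (limma adjusted p = 0.123). Timp1 lies inside the gene Syn1 on the opposite strand. Syn1 had a mean of 0.149 RPKM, and whether counting used strand was not given in the sources used here, so reads of both genes may have been mixed.

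The 250 bases before the start of Timp1 (RefSeq, exact match in mm9 at chrX:20447042-20447291, plus strand) are shown as those of the gene with the widest range over the livers. Capitals mark the same motifs.
Timp1: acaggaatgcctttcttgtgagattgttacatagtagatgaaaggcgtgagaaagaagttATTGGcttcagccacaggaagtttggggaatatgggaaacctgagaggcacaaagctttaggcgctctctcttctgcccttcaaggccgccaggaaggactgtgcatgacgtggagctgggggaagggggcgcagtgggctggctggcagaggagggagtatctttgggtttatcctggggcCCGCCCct
They held 1 CCAAT, on the minus strand, and 1 GGGCGG, also on the minus strand next to the start.

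Variation from liver to liver within groups was compared for the 45 pairs of the 10 genes, after removal of group means. Over the 12 libraries 39 pairs had a positive Pearson correlation, with a median r of 0.49, and 7 pairs passed an adjusted permutation p under 0.05, all positive. The genes of these pairs formed 2 sets joined by 1 pair. The first held the fibrillar collagens. For Col1a2 and Col3a1 r was 0.98 (permutation p = 0.000420, adjusted p = 0.00441) and Spearman's rho 0.94 (permutation p = 0.000440, adjusted p = 0.0099), and r was 0.93 without the 2 livers farthest from the median. Col1a1 had r of 0.96 with Col3a1 (adjusted permutation p = 0.00441) and 0.94 with Col1a2 (adjusted permutation p = 0.0140), with rho of 0.94 and 0.91 (adjusted permutation p = 0.0116 and 0.0415).

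The second set held Lum, Des and Pdgfrb. For Lum and Pdgfrb r was 0.87 (permutation p = 9.0e-05, adjusted p = 0.00405) and rho 0.93 (permutation p = 0.000160, adjusted p = 0.0072), with r of 0.89 without the 2 farthest livers. Des had r of 0.87 with Lum and 0.85 with Pdgfrb (adjusted permutation p = 0.00441 for both) and rho of 0.83 and 0.85 (adjusted permutation p = 0.0116 for both). The pair between the sets was Col3a1 and Des (r = 0.53, adjusted permutation p = 0.0371, rho = 0.76, adjusted permutation p = 0.0483). Acta2 with Des reached 0.77 (adjusted permutation p = 0.0936), and Timp1 with Reln was the most negative pair at -0.43 (adjusted permutation p = 0.262). Dcn, Reln, Acta2 and Timp1 were in no pair that passed. Livers share depth and scaling across genes, and no pair was tested within a single group of 4.

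**Figure D4:**
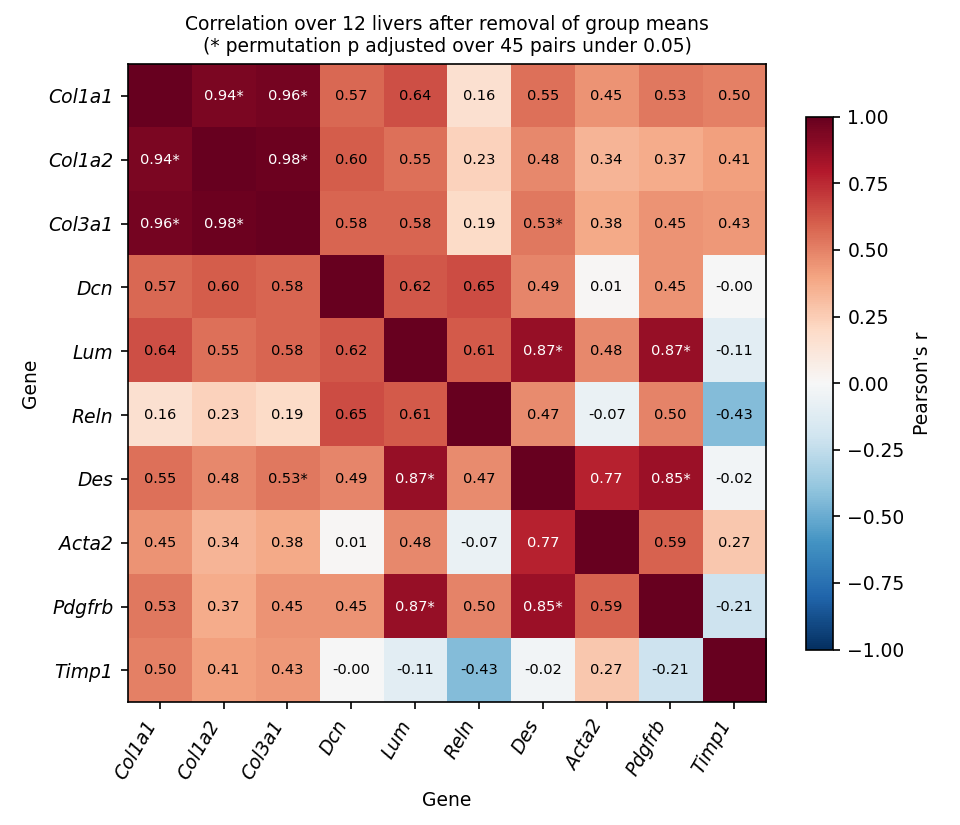
Pearson's r of each pair of genes over the 12 livers, on log2(RPKM + 0.1) with group means removed. Red is positive, blue negative, and asterisks mark the 7 pairs with an adjusted permutation p under 0.05. The 3 collagens (0.94 to 0.98) and Lum, Des and Pdgfrb (0.85 to 0.87) form the darkest blocks.

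The genes outside the 10 with the most similar pattern over all 12 libraries, among 10655 with a mean of at least 1 RPKM, are given as a description. For Col3a1 they were S100a11 (r = 0.97), Sparc (0.95), which encodes a collagen-binding matrix protein, and Col6a2 (0.95), a chain of collagen VI. For Col1a2 they were S100a11 (0.94), the collagen VI chain Col6a1 (0.93) and Sept8 (0.93), and for Col1a1 the adhesion molecule Mcam (0.94), Tbc1d22a (0.92) and the tetraspanin Cd63 (0.92). For Acta2 they were Tagln and Myl9, both of the smooth muscle contractile apparatus (0.85 each), and Sh3yl1 (0.81). For Timp1 they were Tor1aip1 (0.96), the mitochondrial pyruvate carrier subunit Mpc1 (0.94) and the acute phase gene Lcn2 (0.93). Lcn2, the secreted protein lipocalin 2, ranged from 2.45 to 194 RPKM over the livers.

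Further genes of matrix and its control were read from lists chosen for this tissue. Counts after T3 stand beside 8.28% of all genes that rose and 3.47% that fell. Of 16 further collagens tested, 2 rose after T3 and 2 fell, with a median difference of 0.51. Col15a1, a basement membrane collagen, went from 0.853 ± 0.415 to 7.13 ± 1.19 RPKM (3.01, limma adjusted p = 5.6e-05). Col5a3 fell from 6.30 ± 2.43 to 0.487 ± 0.203 RPKM (-3.42, limma adjusted p = 5.4e-05) and Col27a1 from 16.6 ± 7.01 to 2.12 ± 0.657 RPKM (-2.86, limma adjusted p = 0.000118). None of 15 tested was called in the mutant, where Col27a1 was at 3.26 ± 1.63 RPKM (-2.35, limma adjusted p = 0.0128).

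Of 24 genes of collagen folding, processing and crosslinking, 6 rose after T3 and 0 fell, with a median difference of 0.60. P3h1, a prolyl hydroxylase of collagen, went from 3.23 ± 0.268 to 8.95 ± 0.989 RPKM (1.44, limma adjusted p = 1.8e-05). The enhancers of procollagen C-proteinase Pcolce (1.25, limma adjusted p = 7.8e-05) and Pcolce2 (2.45, limma adjusted p = 0.000286) and the crosslinking enzyme Tgm2 (1.18, limma adjusted p = 0.00132) also rose. The mutant changed none of these 24 genes past the threshold, with a median difference of 0.38. Between T3-treated WT and the mutant 4 of the 24 were called, beside 21.2% of 14017 genes. These were P3h1, Pcolce2, Plod1 and Plod3, higher in T3-treated WT (0.56 to 1.55, limma adjusted p = 0.000299 to 0.00517).

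Of 30 matrix glycoproteins and proteoglycans, 1 rose after T3, the fibronectin gene Fn1, from 176 ± 11.5 to 405 ± 98.1 RPKM (1.17, limma adjusted p = 0.000503), and it was at 165 ± 13.4 RPKM in the mutant. Of 20 metalloproteinases and inhibitors 2 rose and 1 fell, the membrane-bound protease Mmp15, from 11.7 ± 1.54 to 5.22 ± 0.378 RPKM (-1.14, limma adjusted p = 5.8e-05). Of 26 genes of TGF-β and PDGF signalling 2 rose, the SMAD corepressor Skil (2.29, limma adjusted p = 9.0e-05) and the TGF-β coreceptor Tgfbr3 (1.57, limma adjusted p = 9.4e-06). In the mutant 0 genes of these 3 lists were called, with median differences of 0.40, 0.31 and 0.30.

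Markers of liver cell types were read in the same way. Of 24 stellate cell markers outside the 10 genes, 1 rose past both thresholds after T3 and 0 fell, with a median difference of 0.59. At a limma adjusted p under 0.01 and any fold 7 were higher and 0 lower, beside 24.5% and 7.71% of all genes. In the mutant 0 of 24 were called, with a median of 0.27. The summed level of 25 markers was 142 to 166 RPKM in hypothyroid WT, 223 to 622 RPKM in T3-treated WT and 138 to 197 RPKM in the mutant. Steap4 alone ranged from 36.9 to 479 RPKM in T3-treated WT. Without Steap4 and Ecm1, a choice made after the values were seen, 23 markers were summed. Their sum was 52.7 to 77.5 RPKM in hypothyroid WT, 87.6 to 117 RPKM in T3-treated WT and 70.1 to 103 RPKM in the mutant. With or without Steap4 and Ecm1, the sums of T3-treated and hypothyroid WT livers did not overlap. Of all single genes, 35.8% were higher in T3-treated WT without overlap.

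All 14 macrophage markers tested rose after T3, with a median difference of 1.93, and their summed level was 103 to 144 RPKM in hypothyroid WT and 352 to 508 RPKM in T3-treated WT. In the mutant 0 of 14 were called and the sum was 107 to 295 RPKM. Of 16 endothelial markers 1 rose past both thresholds, the lymphatic and sinusoidal hyaluronan receptor Lyve1 (1.52, limma adjusted p = 0.000741). At a limma adjusted p under 0.01 and any fold 6 of the 16 were higher and 0 lower. Their sums were 107 to 145 RPKM in hypothyroid WT, 152 to 172 RPKM in T3-treated WT and 129 to 171 RPKM in the mutant. Of 13 portal fibroblast and mesothelial markers 3 rose, Col15a1 and the surface antigen Cd34 among them, with sums of 12.4 to 21.0, 17.0 to 38.9 and 19.8 to 26.7 RPKM. In the mutant 0 markers of these lists were called.

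Of 10 smooth muscle markers and 9 lymphocyte markers tested 0 were called after T3, and of 8 and 8 tested in the mutant 0 were called. Lymphocyte sums were 1.66 to 5.6 RPKM in hypothyroid WT, 3.45 to 6.37 RPKM in T3-treated WT and 1.35 to 2.90 RPKM in the mutant. The difference after T3 was above 0 for 9 of the 9 lymphocyte markers, beside 69.9% of all genes, with a median of 0.64. Of 6 cholangiocyte markers 1 rose, with sums of 10.7 to 20.4 RPKM over all livers. Of 11 hepatocyte markers 2 fell, Alb from 31804 ± 4200 to 14325 ± 2510 RPKM (-1.16, limma adjusted p = 0.00818) and Ttr (-1.55, limma adjusted p = 0.000108). The list as a whole did not fall, with a median difference of 0.06 and 6 of 11 above 0. At a limma adjusted p under 0.01 and any fold 2 were higher and 3 lower. The sum of the 11 was 43298 to 55274 RPKM in hypothyroid WT, 28316 to 36221 RPKM in T3-treated WT and 38797 to 42257 RPKM in the mutant. Of 5 red cell genes 1 rose and 1 fell after T3, and 1, Alas2, was lower in the mutant. No marker of any list was at 0 in all libraries. The part of these cell type markers in the differences of the 10 genes was not tested.

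The deposited list of H3 acetylated regions (H3K9Ac and H3K27Ac, 37200 regions in mm9, median 2537 bp) gives positions only, without a level in any sample. Transcript starts from GENCODE M1 were placed in it. Of the 10 genes, 1 (Reln) had its start inside a region, compared to 86.1% of 12215 genes with a position, and to 87.4% of the 4869 genes with mean levels between those of Timp1 and Reln. The region at Reln was 3291 bp long. Dcn and Pdgfrb had a region that began 129 bp and 81 bp downstream of the start, of 5824 bp and 1558 bp, so within 1 kb of the start the count was 3 of 10, compared to 88.0% of all genes.

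The starts of the other 7 genes lay far from any region. Distances from the start to the nearest region were 10877 bp for Acta2, 20375 bp for Timp1, 41315 bp for Des, 42481 bp for Col1a1, 54556 bp for Col3a1, 79938 bp for Lum and 94687 bp for Col1a2. For Acta2 that region, of 1000 bp, lay inside the gene, and for Lum it was the region of Dcn. The start of Dcn that GENCODE gives for another transcript lay inside that region, which gave 2 of 10 genes by any transcript. No region overlapped the bodies of Col1a1, Col1a2, Col3a1, Lum, Des or Timp1. All 3 fibrillar collagens, including Col3a1 that rose after T3, were thus without a listed region in the 38169 bp or less of their gene bodies.

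The share also differed between the marker lists, given here as counts. Starts inside a region were found for 16 of 16 endothelial, 11 of 11 hepatocyte and 10 of 13 macrophage markers, for 9 of 25 further stellate cell markers, 5 of 14 smooth muscle markers and 4 of 16 portal fibroblast and mesothelial markers, and for 0 of 10 lymphocyte markers. Among matrix genes the counts were 9 of 20 further collagens, 16 of 34 glycoproteins and proteoglycans and 16 of 24 genes of collagen folding and crosslinking. Lrat was among the stellate cell markers without a region at the start.

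**Figure D5:**
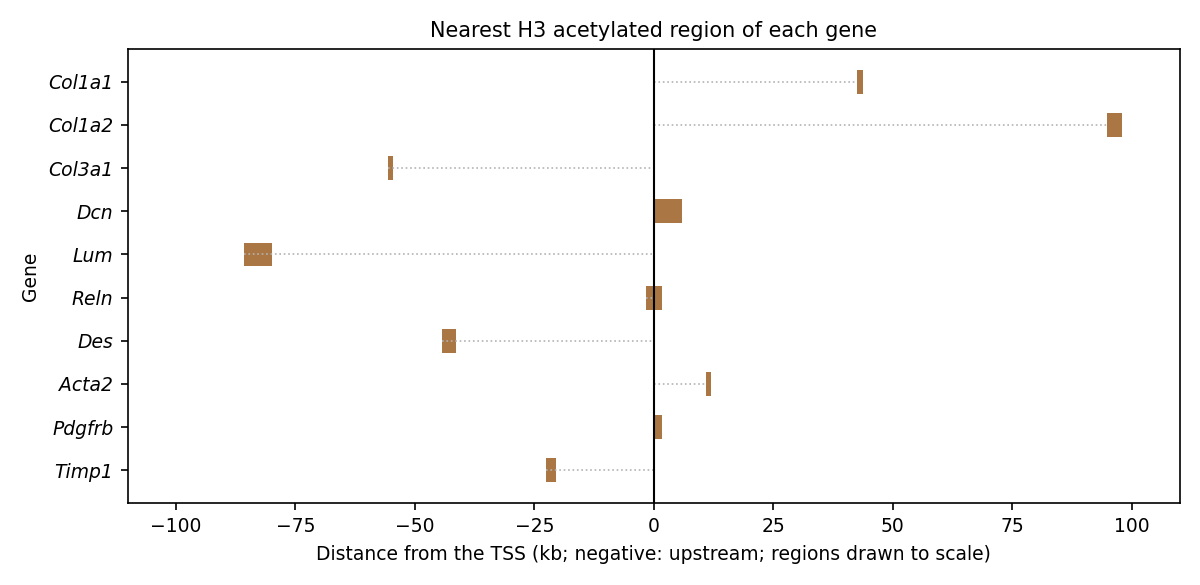
Nearest H3 acetylated region of each gene, as distance in kb from the transcript start (vertical line), with negative values upstream and regions drawn to scale. Reln overlaps the line, Dcn and Pdgfrb begin next to it, and the other 7 genes lie 10877 to 94687 bp away.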

How the data were processed

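RNA-seq of poly(A)-selected RNA from 12 mouse livers was analysed. Per the labels and the methods of the study, reads were aligned to mm9 with STAR and quantified with HOMER, each library had runs on more than 1 instrument model, and the deposited values are RPKM per RefSeq transcript, normalised by the authors to length and depth. Depth was estimated from the steps between low values, so 0.1 RPKM stands for about 2.14 to 4.28 reads per kb. The RPKM table held 31370 transcripts. The 1 row without a gene name (at most 0.00079% of RPKM) was left out, and the first listed transcript stood for a gene. The deposited BED list of regions gives coordinates only.

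limma 3.58.1 (R 4.3.3) was run on log2(RPKM + 0.1) with a variance trend, on the 2 groups compared, for genes that reached 0.1 RPKM in 4 or more libraries, at an adjusted p under 0.01 and, for T3, a log2 difference above 1 in size. It was tested on simulated data. Correlations used 100000 permutations within groups. Python 3.11.15, numpy 2.4.6, pandas 2.3.3, scipy 1.17.1 and matplotlib 3.10.9 were used. Since the RPKM table has no coordinates, starts are the 5′ ends of GENCODE M1 genes and not of the first listed transcript as planned.

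The members and lists were chosen with earlier results of these data known. Other genes were named by rule: from each list up to 4 called genes with the largest change and at least 1 RPKM, or 2 genes of highest level, and the 3 genes most similar in pattern to each collagen, Acta2 and Timp1. Lrat, Vim, Steap4, Ecm1, Thrsp and Syn1 were named after their values were seen. Col12a1, Cd68 and Tf of the lists were not matched by symbol and not analysed here. Alternatives were the pseudocount, filter, transcript, scaling, block, variance trend, thresholds, groups in the fit and each library left out. ChIP-seq samples were not analysed here, and 1 marker that the rule names is not reported here.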

Additional observations from a re-analysis of the deposited data

Results flagged for a closer look

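In hypothyroid WT, replicate 4 stood apart from the other 3 livers for both cytoskeletal genes. Des was at 2.159 RPKM in that liver and at 0.949 to 1.041 RPKM in the others, a gap of 0.924 of the range of the group. Acta2 was at 2.249 RPKM there and at 0.323 to 0.652 RPKM in the others, a gap at the critical value of Dixon's test. These were 2 of 30 combinations of gene and group examined, and chance alone gives about 1 in 20.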

How the results depend on the processing

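Of the 10 genes, 1 (Col3a1) was called after T3. The count was 0 with a pseudocount of 1, 0 with all 12 libraries in 1 model and 0 with scaling by the median of gene ratios. It was 3 with a pseudocount of 0.01, 2 at an adjusted p under 0.05 and 1 to 3 when each library was left out. In the mutant the count was 1 at an adjusted p under 0.05. Correlated pairs numbered 16 without removal of group means. Genes with a region numbered 3 within 1 kb and 2 by any transcript. Replicate numbers did not pair the livers (correlations of -0.12 to 0.17), and with a replicate block the counts called were 1, 0 and 0. Over all genes that block gave 45 calls in the mutant, compared to 175, and 1642 between T3-treated WT and the mutant, compared to 2975.

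Over all genes, T3 calls numbered 894 with a pseudocount of 1, compared to 1639. Calls in the mutant numbered 601 at an adjusted p under 0.05 and 67 to 187 with each library left out. Between T3-treated WT and the mutant they numbered 5407 and 1651 to 2672.

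Signs changed only for differences that passed no test. With each library left out in turn, the difference of Acta2 after T3 ran from -0.12 to 0.76 and was below 0 without hypothyroid WT replicate 1 (-0.06), T3-treated WT replicate 2 or replicate 3 (-0.02). In the mutant Acta2 ran from -0.54 to 0.28 and Des from -0.13 to 0.24, both highest without hypothyroid WT replicate 4, and Des was 0.05 and 0.0076 without mutant replicates 3 and 4. Between T3-treated WT and the mutant, Dcn ran from -0.091 to 0.14 and Reln from -0.048 to 0.15, both lowest without mutant replicate 3, and Reln was -0.02 without T3-treated WT replicate 3. Col1a2 ran from -0.66 to 0.098 and Col3a1 from -0.86 to 0.079, both highest without mutant replicate 1. Scaling by the median of gene ratios gave -0.15 for Dcn and -0.12 for Reln. The causes were not tested. With 4 livers a group an exact permutation test cannot go below 0.0286. The limma p-values set a difference against the spread between these livers, with variances moderated over all genes. At the depth used, Timp1 in hypothyroid WT rested on 6 reads. The Timp1 ratio without single libraries (14.6 to 30.6 after T3 and 8.16 to 14.3 in the mutant) and the counts without Timp1 were chosen after seeing the data.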
